A study of Arabidopsis thaliana with 8 samples.

Results

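The 9 genes described here make or control the indole defence compounds of Arabidopsis thaliana. They are CYP79B2 (AT4G39950), CYP79B3 (AT2G22330), CYP83B1 (AT4G31500), SUR1 (AT2G20610), CYP71A12 (AT2G30750), CYP71A13 (AT2G30770), PAD3 (AT3G26830), MYB51 (AT1G18570) and MYB122 (AT1G74080). They were taken by locus from the 25643 loci named on the array, and each was read by 1 probe. All 9 were well above background on at least 1 array and were tested, and 7 were so on all 8 arrays.

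RNA was measured on 1 Agilent array per strain in 8 diploid strains. These were ExTQ019, ExTQ018, ExTQ016, ExTQ015, ExTQ013, ExTQ005, ExTQ003 and ExTQ002. All 8 descend from plants that carried the gene of the restriction enzyme MseI and were heated for 3 h at 33 °C to switch it on, which is called Ex-TAQing and cuts the chromosomes at many sites. The progeny grew for 4 weeks on agar medium with sucrose with a daily 16 h of light and 8 h of darkness, and leaves are the labelled tissue. The 8 strains form 1 group with no untreated strain here, so a strain is set only against the 7 others, and 8 arrays in all limit the precision. Strains are called by their titles, whose numbers differ from those in the descriptions, and the labels' molecule field names genomic DNA although their protocols describe total RNA. The sources used here do not give whether leaves of 1 plant or of several were pooled in a sample.

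Camalexin and the indole glucosinolates both start from tryptophan. CYP79B2 and CYP79B3 turn tryptophan into indole-3-acetaldoxime, a branch point from which CYP83B1 and SUR1 lead to glucosinolates, which are stored and cleaved when tissue is damaged. From the same branch point CYP71A12 and CYP71A13 make indole-3-acetonitrile, and PAD3 completes camalexin, an antimicrobial compound that leaves make only when challenged. MYB51 and MYB122 are transcription factors that switch on the indole glucosinolate genes.

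Each level is the log2 intensity of a probe minus the 75th percentile of its array, and levels of different genes are not set against each other because their probes differ. From 61.3% of probes in ExTQ015 to 67.7% in ExTQ016 were well above background. Probes printed 10 times on an array had a median SD of 0.05 to 0.08 over their spots. The arrays lay on a pair of slides scanned one after the other, with ExTQ002, ExTQ013, ExTQ015 and ExTQ003 on slide 1 and the others on slide 2, so slide and scan cannot be told apart. For the 9 genes the difference of slide 2 from slide 1 lay between −1.48 for CYP71A13 and −0.03 for SUR1, with limma adjusted p of 0.655 or more. ExTQ019 stood furthest from the rest of the series, with 2396 of 22381 genes called.

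The camalexin genes spread widely over the strains. PAD3, the enzyme of the last step, had a level of 2.56 in ExTQ002, 2.32 in ExTQ019, 1.28 in ExTQ013 and 1.24 in ExTQ015. Its level was −0.81 in ExTQ005, −1.47 in ExTQ018, −2.05 in ExTQ016 and −3.30 in ExTQ003. The highest strain was thus 57.9-fold above the lowest, and between ExTQ015 and ExTQ005 lay a gap of 2.05 with 4 strains on either side. The fold between these strains was 38.7 in the deposited series values and 15.4 with normexp, where ExTQ016 was lowest. The SD over the 8 strains was 2.17, larger than that of 99.3% of the 18920 genes well above background on all arrays, whose median SD was 0.30.

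CYP71A13, which supplies the nitrile for camalexin, ran close to PAD3. Its level was −1.82 in ExTQ002, −2.74 in ExTQ015, −3.12 in ExTQ019 and −3.45 in ExTQ013, against −5.84 in ExTQ005, −6.55 in ExTQ018 and −6.56 in ExTQ016. In ExTQ003 it was not well above background, which makes ExTQ002 at least 47.1-fold higher than ExTQ003. That bound uses, in place of the measured level, the dimmest probe that ExTQ003 still held well above background. It depends on how background is removed, since the same strains differed 7.79-fold in the deposited series values. With normexp background correction they were nearly level, at −1.72 in ExTQ002 and −1.86 in ExTQ003.

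CYP71A12, its neighbour on chromosome 2, makes the same nitrile and is known for the indole-carbonyl branch. It was highest in ExTQ019 at −0.55, followed by ExTQ002 at −1.70, ExTQ015 at −3.17 and ExTQ013 at −3.20. The other 4 strains lay lower, at −4.97 in ExTQ018, −5.15 in ExTQ016, −5.44 in ExTQ005 and −5.80 in ExTQ003. The same 4 strains were highest for all 3 camalexin branch enzymes, with their order changed, and ExTQ019 was 37.9-fold above ExTQ003 for CYP71A12. That fold was 13.4 in the deposited series values and 2.59 with normexp, where ExTQ003 ranked 3 of 8.

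**Figure D1:**
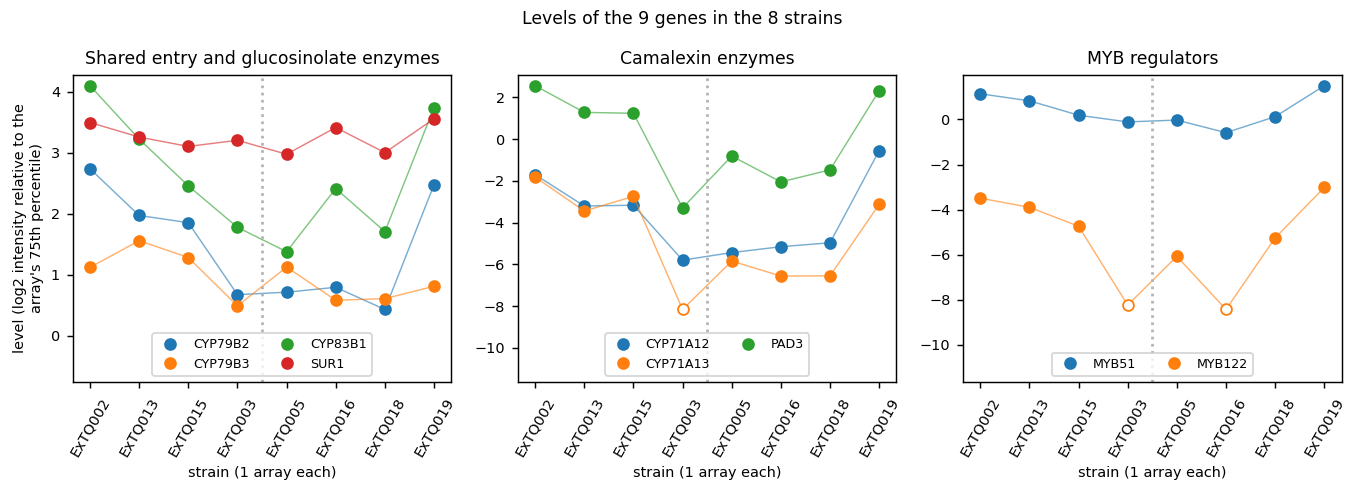
Levels of the 9 genes (log2 intensity relative to the 75th percentile of the array, vertical axis) in the 8 strains with 1 array each, slide 1 left and slide 2 right of the dotted line. Filled points were well above background and open points were not, and the lines only guide the eye; PAD3 ranges from 2.56 in ExTQ002 to −3.30 in ExTQ003 while SUR1 stays between 2.98 and 3.56.

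Of the enzymes shared with or leading to glucosinolates, CYP79B2 and CYP83B1 followed the same strains with a smaller range. CYP79B2, which makes indole-3-acetaldoxime, had levels of 2.74 in ExTQ002, 2.48 in ExTQ019, 1.97 in ExTQ013 and 1.85 in ExTQ015. It had levels of 0.79 in ExTQ016, 0.71 in ExTQ005, 0.67 in ExTQ003 and 0.43 in ExTQ018. The 4 lower strains lay within 0.36 of each other below a gap of 1.06, and the highest strain was 4.95-fold above the lowest.

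CYP83B1, the first enzyme committed to indole glucosinolates, had levels of 4.10 in ExTQ002, 3.74 in ExTQ019, 3.22 in ExTQ013 and 2.46 in ExTQ015. Its levels were 2.41 in ExTQ016, 1.78 in ExTQ003, 1.71 in ExTQ018 and 1.38 in ExTQ005. ExTQ015 and ExTQ016 differed by 0.04, within the spread of repeated spots, the widest gap was 0.77 between ExTQ013 and ExTQ015, and the range was 6.59-fold.

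CYP79B3, the close relative of CYP79B2, and the C-S lyase gene SUR1 varied least. CYP79B3 had levels of 1.56 in ExTQ013, 1.28 in ExTQ015, 1.13 in ExTQ005 and 1.12 in ExTQ002. It had levels of 0.81 in ExTQ019, 0.61 in ExTQ018, 0.58 in ExTQ016 and 0.49 in ExTQ003, with an SD of 0.38 over the strains. SUR1 had levels of 3.56 in ExTQ019, 3.50 in ExTQ002, 3.41 in ExTQ016, 3.26 in ExTQ013, 3.20 in ExTQ003, 3.10 in ExTQ015, 3.00 in ExTQ018 and 2.98 in ExTQ005. All 7 neighbouring pairs in that order were within 0.2, its SD of 0.22 was below the median of all genes, and its range was 1.50-fold.

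The regulator MYB51 had levels of 1.50 in ExTQ019, 1.14 in ExTQ002, 0.83 in ExTQ013 and 0.19 in ExTQ015. Its levels were 0.13 in ExTQ018, −0.03 in ExTQ005, −0.11 in ExTQ003 and −0.58 in ExTQ016. ExTQ015 and ExTQ018 were as close as the spread of repeated spots, and the range was 4.24-fold. MYB122, the other regulator, was read by a dim probe. It stood at −3.02 in ExTQ019, −3.49 in ExTQ002, −3.90 in ExTQ013, −4.74 in ExTQ015, −5.25 in ExTQ018 and −6.08 in ExTQ005. In ExTQ003 and ExTQ016 MYB122 was not well above background, which makes ExTQ019 at least 28.1-fold higher than ExTQ016. The same strains differed 4.22-fold in the deposited series values and 4.84-fold with normexp, so the bound holds only for the processed signal. The 6 strains with a measured level came in the same order for MYB122 as for MYB51.

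ExTQ002, ExTQ013, ExTQ015 and ExTQ019 were thus the 4 highest strains for 7 of the 9 genes, all but CYP79B3 and SUR1. The same 4 strains were highest in 7.14% of all 22381 tested genes. With normexp ExTQ003 joined the 4 highest for CYP71A12, CYP71A13 and MYB122. This set of strains was picked after the levels had been seen and is no group of the study, so it was not tested. For no gene did the highest or lowest strain stand apart by Dixon's test, with a largest gap of 0.258 of the range, at the top of CYP79B3.

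Whether a single strain differed from the rest was tested for each strain against the 7 others (limma, Benjamini-Hochberg over all tested genes of the strain). A call needed a log2 difference of 1 or more in either direction besides an adjusted p below 0.05. In none of the 8 strains was any of the 9 genes called by limma, and 1 gene in 1 strain had an unadjusted p under 0.05, CYP71A12 in ExTQ019, where 32.2% of all genes had one. Over all genes the share called was 0.0849% in ExTQ002, 0% in ExTQ013, 0.0536% in ExTQ015 and 0% in ExTQ003. It was 0.00447% in ExTQ005, 1.39% in ExTQ016, 0% in ExTQ018 and 10.7% in ExTQ019. In ExTQ019 it was 8.95% with the deposited series values and 4.51% with normexp background correction, again with 0 of the 9 called. A count of 0 among 9 genes is therefore near the background in every strain. The test takes its spread from the 7 others, which for these genes was itself wide.

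In ExTQ019 CYP71A12 stood at −0.55 against a mean of −4.20 ± 1.52 in the others (SD, n = 7), a difference of 3.65 ± 1.47 (SE) with a limma adjusted p of 0.136. All 7 others were lower than ExTQ019. The difference was 2.69 ± 2.04 for PAD3 (limma adjusted p = 0.419) and 1.27 ± 0.57 for MYB51 (limma adjusted p = 0.175). For CYP79B2 it was 1.17 ± 0.85 (limma adjusted p = 0.399) and for CYP83B1 1.31 ± 0.93 (limma adjusted p = 0.387), and CYP79B3 differed by −0.16 ± 0.41.

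Without ExTQ002, whose levels are also high, CYP71A12 was called in ExTQ019, at 4.07 with a limma adjusted p of 0.0443, where 14.2% of all genes were called. Against the 3 others of its own slide, which are among the lowest strains, 4 of the 9 genes were called in ExTQ019, with 17.8% of all genes called. These were CYP71A12 at 4.63, PAD3 at 3.77, CYP71A13 at 3.19 and CYP79B2 at 1.83, with limma adjusted p from 0.0198 to 0.0323.

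In ExTQ002 all 9 genes lay above the mean of the 7 others, with a median difference of 1.71 against −0.04 over all tested genes. All 9 also lay above it in ExTQ013 (median difference 0.70) and 8 in ExTQ019 (1.31), against 6 in ExTQ015 (0.45) and 1 in each of ExTQ005, ExTQ016 and ExTQ018. CYP71A13 differed by 3.39 ± 2.01 and PAD3 by 2.96 ± 1.97, and CYP83B1, with the smallest adjusted p of the 9, by 1.71 ± 0.83 (SE, limma adjusted p = 0.577). In ExTQ003 all 9 genes lay below the mean of the others, with a median difference of −0.94 against 0.04 over all tested genes. PAD3 differed by −3.73 ± 1.80 there and CYP79B2 by −0.89 ± 0.89 (limma adjusted p = 0.999 for each). In ExTQ003 the sign of CYP71A12, CYP71A13 and MYB122 turned with normexp background correction, which also raised the median of all genes in that strain by 0.24.

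The pairs of closely related genes did not move alike in every strain. Each is given relative to its own median over the 8 strains, because probes of different genes cannot be compared in level. CYP71A12 stood 3.53 above its median in ExTQ019 and CYP71A13 1.52 above its own, a divergence of 2.01. In ExTQ015 the order was the other way, with CYP71A12 at 0.92 and CYP71A13 at 1.90. CYP79B2 stood 1.41 above its median in ExTQ002 and 1.15 in ExTQ019, whereas CYP79B3 stood at 0.15 and −0.15 in the same strains. In ExTQ013 CYP79B2 and CYP79B3 were nearly level, at 0.65 and 0.59. These divergences have no replicate behind them. CYP71A12 and CYP71A13 are alike in sequence, so shared signal between their probes is uncertain.

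**Figure D2:**
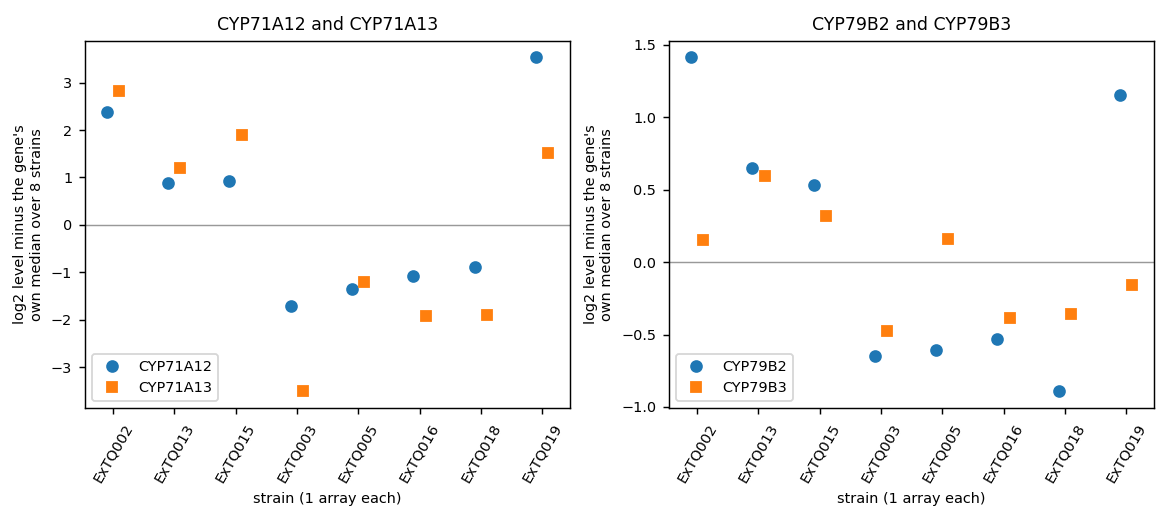
Log2 level of each gene minus its own median over the 8 strains (vertical axis) for CYP71A12 with CYP71A13 and for CYP79B2 with CYP79B3, 1 point per gene and strain. In ExTQ019 CYP71A12 is at 3.53 and CYP71A13 at 1.52, and CYP79B2 is at 1.15 and CYP79B3 at −0.15.

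How closely genes of the pathway ran together was measured in 5 pairs over the 8 strains, with two-sided exact permutation p-values adjusted over the 5. CYP71A13 and PAD3, both enzymes on the way to camalexin, had r = 0.98 (exact permutation p = 0.000273, adjusted p = 0.00136). Their Spearman's rho was 0.929 (exact permutation p = 0.00223, adjusted p = 0.0112). Without ExTQ002 and ExTQ003 r was 0.96, and within the slides it was 0.99 and 0.99 (n = 4 each), but with normexp it was 0.58 and not past the threshold (exact permutation, adjusted p = 0.153). Only 0.00447% of the other tested genes, a single one, had an r with CYP71A13 as high, which was PAD3 itself. CYP79B2 and CYP71A13 had r = 0.93 (exact permutation p = 0.00672, adjusted p = 0.0168) and rho of 0.81 (exact permutation p = 0.0218, adjusted p = 0.0363), with 0.90 without ExTQ019 and ExTQ002. With normexp this r was 0.62, also not past the threshold (exact permutation, adjusted p = 0.153). In both pairs the strains lay on either side of a gap with 4 on each side, and no relation was tested within these sets of 4, which were seen only in the data.

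MYB51 and CYP83B1, a regulator and an enzyme of the pathway it controls, had r = 0.82 (exact permutation p = 0.0160, adjusted p = 0.0267) and rho of 0.762 (exact permutation p = 0.0368, adjusted p = 0.0459). Without ExTQ002 and ExTQ019, the strains farthest from the MYB51 median, r was 0.51 (exact permutation p = 0.269). Leaving them out narrows the range of MYB51, which by itself can lower r. Whether the relation rests on those strains therefore cannot be told. Within slide 1 r was 0.99 and within slide 2 it was 0.73. WRKY33, a transcription factor known to bind PAD3 and CYP71A13, had r = 0.73 with PAD3 (exact permutation p = 0.0327, adjusted p = 0.0409) and rho of 0.833 (exact permutation p = 0.0154, adjusted p = 0.0363). Without ExTQ002 and ExTQ016 r was 0.66 (exact permutation p = 0.149), and within the slides it was 0.86 and 0.87. CYP79B3 and CYP83B1 had r = 0.36 (exact permutation p = 0.364, adjusted p = 0.364) and rho of 0.286 (exact permutation p = 0.501, adjusted p = 0.501), with 0.57 within slide 1 and −0.25 within slide 2. Many genes share these profiles, and 8.29% of tested genes had an r with MYB51 as high as that of CYP83B1 and 5.78% one with WRKY33 as high as that of PAD3.

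**Figure D3:**
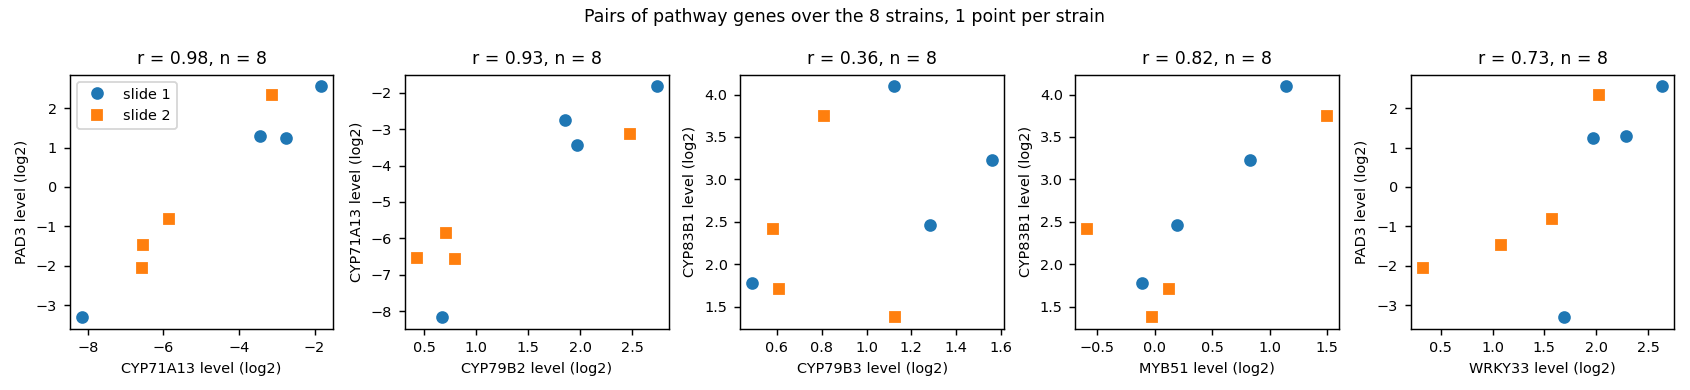
Level of the second gene (vertical axis, log2) against that of the first (horizontal axis, log2) for the 5 pairs, 1 point per strain and 8 strains, circles for slide 1 and squares for slide 2. CYP71A13 with PAD3 lies closest to a line (r = 0.98), and CYP79B3 with CYP83B1 shows the most scatter (r = 0.36).

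Over all 36 pairs of the 9 genes the median r was 0.81 and the range −0.08 to 0.98 (n = 8 strains), as a description. Among the 18920 genes above background on all arrays, the 3 outside the 9 whose pattern was most like PAD3 were ABCG40 (r = 0.98), AT1G55460 (r = 0.97) and AT3G50550 (r = 0.97). ABCG40, an ABC transporter gene, ranged from −3.85 in ExTQ003 to 1.60 in ExTQ019. For CYP79B2 they were AT1G17500 (r = 0.995), AT5G07850 (r = 0.99) and AVA-P2 (r = 0.99), and for CYP83B1 NAC044 (r = 0.99), PUB24 (r = 0.98) and CAD1 (r = 0.98), all over the 8 strains. AVA-P2 ranged only from 4.70 to 5.29.

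The other genes of the pathway were taken from gene lists. In the tryptophan list, which holds the enzymes that feed the pathway, 0 of 10 tested genes were called in any strain by limma, with 2 at an unadjusted p under 0.05 in ExTQ002 and 3 in ExTQ019. Over all genes that share was 9.57% in ExTQ002, 4.77% in ExTQ016 and 32.2% in ExTQ019, so 3 of 10 genes in ExTQ019 is near it. Its median difference was 1.02 in ExTQ002 and −0.67 in ExTQ003, against −0.04 and 0.04 over all genes. TSA1, the tryptophan synthase alpha chain, ranged from 3.16 in ExTQ002 to 1.06 in ExTQ005, and ASA1, the first enzyme of the route, from 2.84 in ExTQ002 to 0.81 in ExTQ003. TRP1 was highest in ExTQ002 at 3.04 and lowest in ExTQ005, and IGPS ranged from 3.72 in ExTQ019 to 1.96 in ExTQ003. For 5 of the 10 genes ExTQ002, ExTQ013, ExTQ015 and ExTQ019 were the 4 highest strains. They were so for 3 of 12 later indole glucosinolate genes, 4 of 6 camalexin accessory genes, 1 of 3 genes of the nitrile branches and 3 of 7 for breakdown and transport. They were so for 0 of 4 regulators and 0 of 20 aliphatic genes, against 7.14% of all genes.

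Of 12 genes for the later steps of indole glucosinolates, 0 were called in any strain by limma, with 1 at an unadjusted p under 0.05 in ExTQ002 and 3 in ExTQ019, which are near or below the 9.57% and 32.2% of all genes. The hydroxylase gene CYP81F4 had the largest SD, 1.59, with its highest level in ExTQ002 at 0.95 and its lowest in ExTQ019 at −3.94. CYP81F2, which hydroxylates the indole ring for defence, ranged from 1.83 in ExTQ002 to −1.58 in ExTQ019, and CYP81F1 was highest in ExTQ019 at 2.62 and lowest in ExTQ005 at 0.38. The methyltransferase gene IGMT2 ranged from −1.27 in ExTQ019 to −3.65 in ExTQ016. ExTQ002 and ExTQ019, both high for CYP79B2 and CYP83B1, thus lay at opposite ends for CYP81F2 and CYP81F4.

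CYP81F2 lies in the end of chromosome 5 from AT5G49690 to AT5G67640, where the median difference of 1658 tested genes was −0.90 in ExTQ019, and CYP81F2 differed by −1.86 there. MYB34, another activator of the indole genes, lies in the same stretch and differed by −0.40 in ExTQ019, as does TSB1 with −1.12. MYB28 of the aliphatic list and GTR2 of the transport list also lie there. MYB28 differed by −0.67 in ExTQ019, whereas GTR2 was higher by 0.24. None of the 9 genes lay in this or the 6 other stretches of lowered genes in ExTQ019, ExTQ003 and ExTQ015. MYB34 ranged from −0.03 in ExTQ002 to −1.09 in ExTQ016. MYC2, MYC3 and MYC4, bHLH partners of the MYB factors, had SDs of 0.36, 0.31 and 0.22. With MYB34 these are 4 regulators, and 0 of the 4 were called in any strain by limma. Only in ExTQ019 did 1 of the 4 have an unadjusted p under 0.05, against 32.2% of all genes there.

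Among 6 camalexin accessory genes 0 were called in any strain by limma, with 1 at an unadjusted p under 0.05 in each of ExTQ002, ExTQ016 and ExTQ019, against 9.57%, 4.77% and 32.2% of all genes in these strains. JUB1, a NAC factor linked to camalexin, had levels of 0.54 in ExTQ019 and −1.50 in ExTQ002 and fell short of a call in ExTQ019, where it differed by 4.21 ± 1.24 (SE, limma adjusted p = 0.0575). GSTF6, a glutathione transferase gene, ranged from 3.88 in ExTQ019 to −0.49 in ExTQ003. WRKY33 ranged from 2.64 in ExTQ002 to 0.33 in ExTQ016 and ABCG34, a camalexin exporter, from 2.89 in ExTQ002 to 1.52 in ExTQ018.

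The indole-carbonyl and cyanogenic branches use the same nitrile. CYP71B6, an enzyme of the carbonyl branch, was the 1 of 3 listed genes called in ExTQ019, where 10.7% of all genes were called. Its level was 4.39 there against a mean of 2.88 ± 0.38 in the others (SD, n = 7), a difference of 1.51 ± 0.38 (SE, limma adjusted p = 0.0350). The call was lost with normexp, with adjustment over all strains (adjusted p = 0.204) and without any 1 of ExTQ015, ExTQ003, ExTQ005, ExTQ016 and ExTQ018, with a difference of 1.45 or more each time. FOX1, which acts in the cyanogenic branch, ranged from 0.39 in ExTQ019 to −4.68 in ExTQ003. CYP82C2 was well above background in 4 strains only.

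Of 7 genes for breakdown and transport 1 was called, the glucosinolate transporter gene GTR1 in ExTQ019, where 10.7% of all genes were called. Its level was 2.27 there against a mean of 0.16 ± 0.25 in the others (SD, n = 7), a difference of 2.11 ± 0.27 (SE, limma adjusted p = 0.00364). The call held with normexp, quantile normalization, the deposited series values and the slide as a block, at 1.96 or more. PEN3, a transporter of the plasma membrane, ranged from 5.35 in ExTQ019 to 4.15 in ExTQ003, PCS1 from 1.57 in ExTQ019 to 0.24 in ExTQ003 and the myrosinase gene TGG2 from 5.56 in ExTQ018 to 4.51 in ExTQ003.

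**Figure D4:**
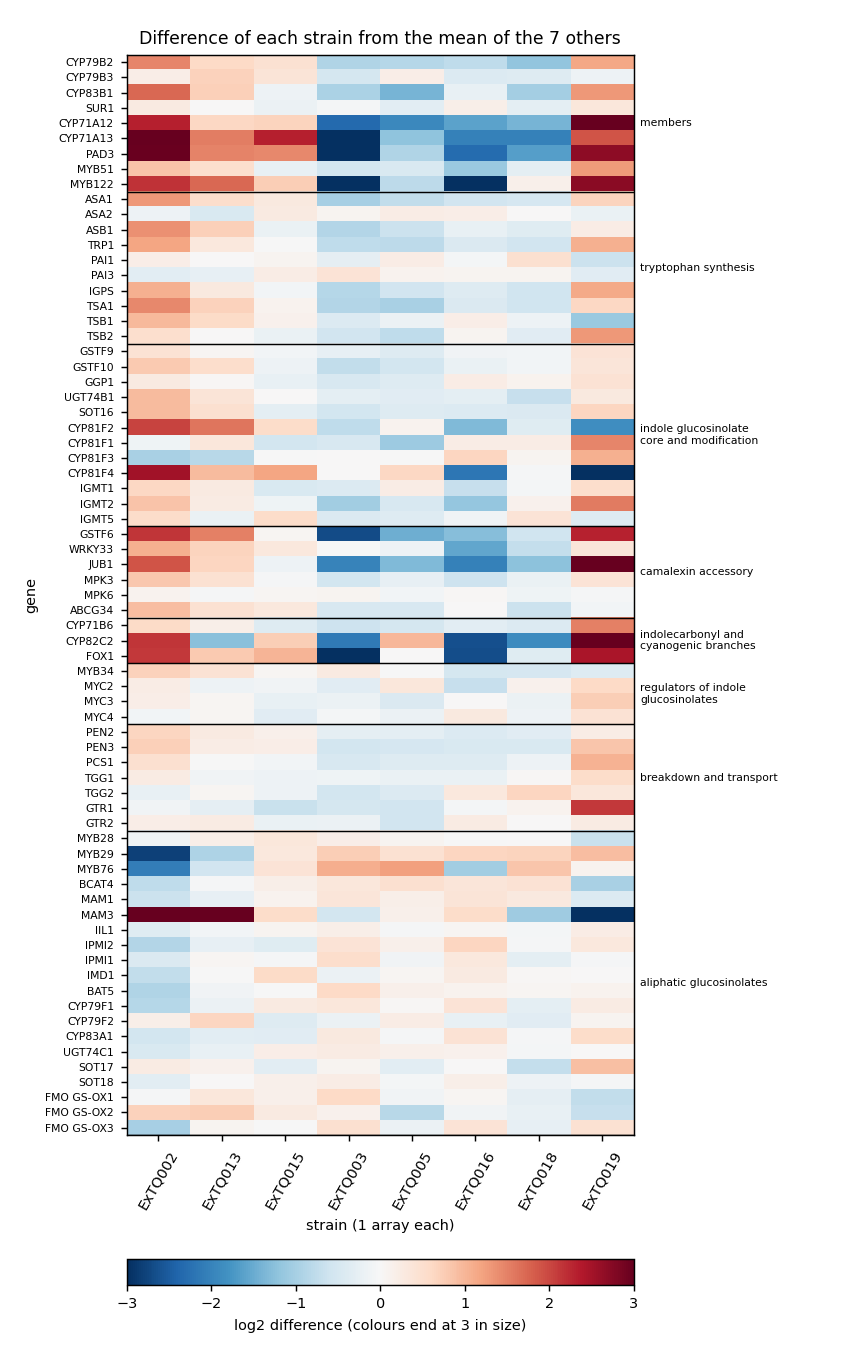
Difference of each strain (columns, 1 array each) from the mean of the 7 others for the 9 genes and 7 pathway lists (rows), in colour on a log2 scale that ends at 3 in size, red for higher. The camalexin genes are red in ExTQ002 and ExTQ019 (PAD3 2.96 and 2.69) and blue in ExTQ003 (−3.73), and most aliphatic glucosinolate genes are pale blue in ExTQ002.

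Markers of other tissues differed between the samples. The leaf markers RBCS1A, LHCB1.3 and LHCB2.1 were well above background in all 8 strains, and RBCS1A lay between 6.68 and 7.26. LHCB1.3 ranged from 0.05 in ExTQ019 to 0.70 in ExTQ015. LHCB2.1 ranged from −1.53 to −0.35 and was lowest in ExTQ002, ExTQ013 and ExTQ015, which are 3 of the 4 strains highest for PAD3. Floral organ markers were also found in samples labelled as leaves, with AP3, PI, AG, SEP3 and SHP2 all well above background in every strain but ExTQ002, where AP3 and SHP2 were not. The summed level of the 5, on the log2 scale, was −0.65 in ExTQ002, 1.23 in ExTQ013, 1.17 in ExTQ015, 2.50 in ExTQ003, 2.44 in ExTQ005, 3.51 in ExTQ016, 3.76 in ExTQ018 and 2.31 in ExTQ019. ExTQ002, ExTQ013 and ExTQ015 were thus lowest for floral markers and high for PAD3, while ExTQ019 was high for PAD3 with floral markers close to those of ExTQ003 and ExTQ005.

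The anther markers A9 and AMS were not well above background in ExTQ002, nor was A9 in ExTQ013. A9 was highest in ExTQ003 at −2.42 and AMS in ExTQ018 at −2.43. The seed markers SESA1, SESA3 and OLEO1 were called higher in ExTQ016 only, and the root hair markers EXPA7 and EXPA18 were not well above background in any strain, while the root hair gene COBL9 was in 7. The part of these tissues in the levels of the 9 genes was not tested. In such samples fewer cells of a type and less RNA per cell cannot be told apart.

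The salicylic acid outputs, which mark a standing immune response, ran partly with the camalexin genes. BGL2, a glucanase gene, had levels of 5.58 in ExTQ019, 3.62 in ExTQ002, 2.65 in ExTQ013 and −0.07 in ExTQ015, against −0.49 in ExTQ018, −1.07 in ExTQ005, −3.19 in ExTQ016 and −4.09 in ExTQ003. PAD3 was thus about as high in ExTQ015 as in ExTQ013, where BGL2 was 2.72 apart. PR5 was called in ExTQ019 (6.23 ± 1.71 SE, limma adjusted p = 0.0471), where 10.7% of all genes were called. BGL2 and PR1, the other listed outputs, were not called there. PR1 was highest in ExTQ019 at 3.29 and lowest in ExTQ003 at −9.23, and was well above background on 7 arrays. The part of the salicylic acid response in the levels of the 9 genes was not tested.

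**Figure D5:**
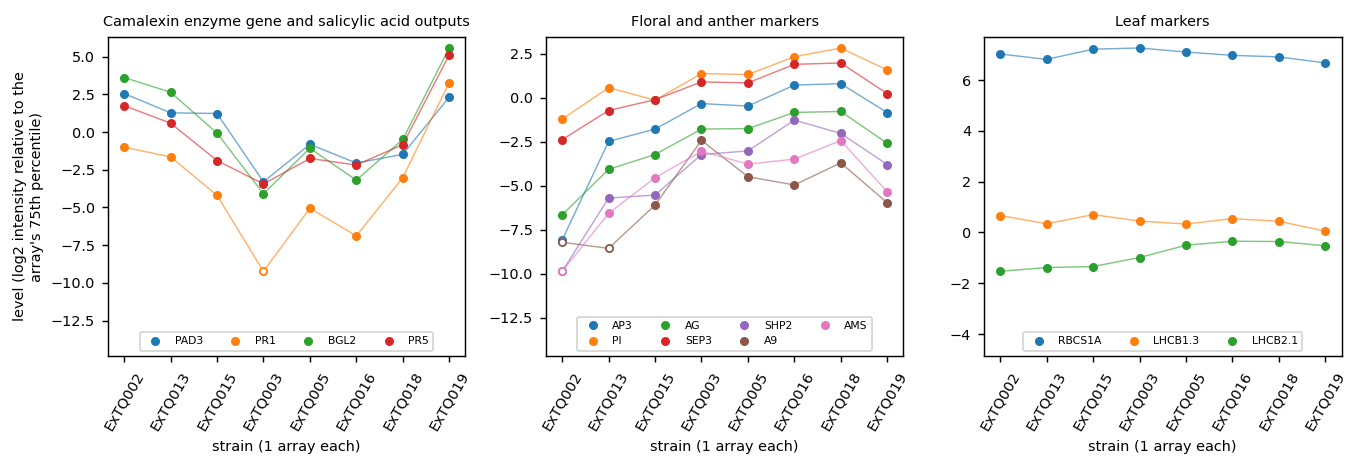
Levels (log2 intensity relative to the 75th percentile of the array) in the 8 strains of PAD3 with the salicylic acid outputs, of floral and anther markers and of leaf markers, 1 array per strain, open points where the probe was not well above background and lines only to guide the eye. AP3 is lowest in ExTQ002 and highest in ExTQ018 at 0.80, and RBCS1A lies between 6.68 and 7.26 throughout.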

How the data were processed

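Cy3-labelled cRNA from 200 ng of total RNA was hybridised to 8 arrays, per the labels' protocols. Per the file headers, the authors' intensity values are processed signals of Agilent Feature Extraction 11.0.1.1. The series values that the authors deposited were found to be log2 values, since each column correlated at 0.997 or more with that array's log2 median intensity. Their medians are nearly equal between arrays, at 7.638 to 7.645. How the deposited values were made is not stated in the labels or headers, though limma stands in the submitters' processing notes.

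Spots marked as outliers were set aside, spots of a probe averaged, and log2 intensity scaled by the 75th percentile of each array. Of 37478 probes 34 were left out. Each locus was read by its brightest probe on average. The 22381 loci well above background on at least 1 array were tested with limma 3.58.1 in R 4.3.3, and other steps used Python 3.11.15. The fit was tested on simulated data. The files hold no mean signal, so normexp used the median signal. The genes named are the 9, genes called in each other list and the 4 of each with the largest SD (of those that every array held well above background), and the 3 most like PAD3, CYP79B2 and CYP83B1. Also named are PR1, CYP82C2, the tissue markers and the list genes in the chromosome 5 stretch. Members and lists were chosen with earlier results of these data known. Alternatives were other background correction, normalization, filters, variance models, adjustment, probe choice, slide terms and left-out strains. Coordinates are left out because no label or header names the genome build of the probes. P-values measure only the spread between these samples.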

Additional observations from a re-analysis of the deposited data

How the results depend on the processing

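The count of the 9 genes called stayed at 0 in 7 of the 8 strains under all alternatives run. In ExTQ019 it was 4 within the slide and 0 to 1 when a strain was left out, the 1 being CYP71A12 without ExTQ002, and 0 under the others. With normexp the differences of ExTQ003 turned to 0.96 for CYP71A12, 1.55 for CYP71A13 and 1.81 for MYB122, all dim probes, with limma adjusted p of 0.131 or more, and the cause was not tested. With normexp r was 0.58 for CYP71A13 with PAD3 and 0.62 for CYP79B2 with CYP71A13, and both lost their adjusted p. With a strain left out r was 0.97 to 0.99 for CYP71A13 with PAD3, 0.90 to 0.96 for CYP79B2 with CYP71A13, and 0.24 to 0.53 for CYP79B3 with CYP83B1. It was 0.77 to 0.94 for MYB51 with CYP83B1, which missed the threshold without any 1 of ExTQ002, ExTQ013, ExTQ015 and ExTQ019. It was 0.65 to 0.92 for WRKY33 with PAD3, which kept it only without ExTQ003; fewer samples were then permuted. The call of MAM3 was lost with normexp (−4.11), the deposited series values (−3.48) and adjustment over all strains, and without ExTQ015 or ExTQ005. No paired analysis was possible because the 8 strains form 1 group. Among the 9 genes, signal over background limits CYP71A13 and MYB122 in ExTQ003 and MYB122 in ExTQ016.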

Other observations

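The aliphatic glucosinolates are made from methionine by a parallel set of enzymes, and their genes were measured in the same strains. MAM3, a chain-elongating synthase gene, was called lower in ExTQ019, at −7.62 against a mean of −1.15 ± 1.58 in the others (SD, n = 7), a difference of −6.47 ± 1.53 (SE, limma adjusted p = 0.0289). The MAM3 level in ExTQ019 was close to −8.06, the lowest level there of any probe well above background. The call was lost with normexp, where the difference was −4.11, with the deposited series values, where it was −3.48, and with adjustment over all strains. MAM3 was the only 1 of 20 aliphatic genes called in any strain. In ExTQ019 10.7% of all genes were called, so 1 of 20 is not above that share. The level of MAM3 was 1.32 in ExTQ002 and 0.72 in ExTQ013, the highest levels of the 8 strains. In ExTQ002, where each of the 9 genes was higher than the mean of the others, 16 of the 20 aliphatic genes lay below it. The median difference of the 20 was −0.50 there, against −0.04 over all genes. None was called there by limma, with 8 of 20 at an unadjusted p under 0.05, against 9.57% of all genes. MYB29, a regulator of the aliphatic genes, had a level of −1.33 in ExTQ002 against a mean of 1.47 in the others, a difference of −2.79 ± 0.54 (SE, limma adjusted p = 0.105). MYB76, a related regulator, was lowest in ExTQ002 and highest in ExTQ005 at −2.12. The oxygenase gene FMO GS-OX2 ranged from −1.23 in ExTQ013 to −2.59 in ExTQ005. The floral markers were also lowest in ExTQ002, and their part in these differences was not tested.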
